A study of Mus musculus with 21 samples.

Results

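The 7 mammary tumors with the highest *Mki67* level (fast tumors) were compared with the 7 with the lowest (slow tumors), out of 21 tumors in all, and the 7 tumors between them were kept as a middle group. *Mki67* (ENSMUSG00000031004.8, chromosome 7, 135689784 to 135716361 on GRCm38.p6) encodes a chromosome surface protein made in dividing cells. The tumors were selected on the measured *Mki67* level alone, as counts relative to the TMM-scaled library size (CPM), on a log2 scale with a prior count of 2. "Fast" and "slow" are therefore names for high and low *Mki67* RNA, and division itself was not measured. *Mki67* chose the groups and is given as a description with no test.

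The study sequenced total RNA of mouse mammary tumors from 9 NeuNT control mice (9 tumors) and from RhoC mice (12 tumors), to ask how raised *RhoC* alters tumors driven by activated ErbB2. All mice were virgin females and carried FloxNeoNeuNT, an activated *Neu* cDNA behind a loxP-flanked stop in the mouse *Erbb2* locus, and MMTV-CreNLST, in which a mammary promoter drives Cre. RhoC mice also carried R26RhoC/+, a *RhoC* cDNA at Rosa26 that is switched on by the same Cre. Of the 9 controls, 7 carried Gata4 loxP/+, an allele that Cre can delete, and the study pooled them with the other controls. The age of each mouse was not in the labels, and the cohorts differed in the age at which tumors arose, so age and cohort cannot be told apart. Tumors of 1 mouse are not independent of each other: mouse P497 gave 4 RhoC tumors, and mouse N9255 gave a fast tumor (R-7) and a slow one (R-6).

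Cells that divide copy their DNA in S phase and separate their chromosomes in mitosis, and each step needs its own set of genes. Many mitotic genes are silent in resting cells and are switched on late in the cycle through promoter elements called CCAAT boxes and CHR elements, while many S-phase genes are under E2F control. Cells that divide also need ribosomes, nucleotides and chromatin, so genes outside the cycle can follow it. In bulk tissue, *Mki67* RNA reads both the share of dividing cells and the amount of RNA in each, and fewer cells of a type cannot be told apart from less RNA per cell, here or for any marker below.

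The promoters of 4 genes that are known to act late in the cycle are shown because these 2 kinds of element are easy to see in them. The sequences run from 250 bases before to 50 bases after the transcription start, 5′ to 3′ on the gene's strand, from RefSeq on GRCm38.p6. Capitals mark CCAAT (or its complement, ATTGG), the CHR letters TTTGAA or TTTAAA on either strand, and the E2F-like letters TTTNNCGC. *Ccnb2* (cyclin B2, a partner of Cdk1) lies at chr9:70421505-70421804 on the minus strand, *Cdc20* (an activator of the anaphase-promoting complex) at chr4:118437294-118437593 on the minus strand, *Plk1* (a mitotic kinase) at chr7:122159185-122159484 on the plus strand, and *Cdk1* (the kinase that starts mitosis) at chr10:69352863-69353162 on the minus strand.
Ccnb2: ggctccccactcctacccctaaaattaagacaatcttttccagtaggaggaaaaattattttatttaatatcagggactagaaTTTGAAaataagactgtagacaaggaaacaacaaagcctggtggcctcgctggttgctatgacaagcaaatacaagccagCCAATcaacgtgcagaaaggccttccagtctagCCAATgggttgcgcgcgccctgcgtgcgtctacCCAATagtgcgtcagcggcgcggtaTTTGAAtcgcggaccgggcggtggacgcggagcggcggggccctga
Cdc20: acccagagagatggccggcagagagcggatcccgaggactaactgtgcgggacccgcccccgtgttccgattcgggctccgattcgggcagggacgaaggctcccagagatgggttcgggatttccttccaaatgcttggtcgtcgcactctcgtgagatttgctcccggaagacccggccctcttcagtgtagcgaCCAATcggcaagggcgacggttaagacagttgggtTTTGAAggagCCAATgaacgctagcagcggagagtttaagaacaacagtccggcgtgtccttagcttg
Plk1: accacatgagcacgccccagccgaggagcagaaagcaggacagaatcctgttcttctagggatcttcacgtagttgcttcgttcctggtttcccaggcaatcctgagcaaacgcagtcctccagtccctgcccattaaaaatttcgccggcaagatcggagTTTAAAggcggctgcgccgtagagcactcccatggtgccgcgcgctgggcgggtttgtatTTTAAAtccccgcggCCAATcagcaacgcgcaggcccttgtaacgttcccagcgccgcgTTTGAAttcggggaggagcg
Cdk1: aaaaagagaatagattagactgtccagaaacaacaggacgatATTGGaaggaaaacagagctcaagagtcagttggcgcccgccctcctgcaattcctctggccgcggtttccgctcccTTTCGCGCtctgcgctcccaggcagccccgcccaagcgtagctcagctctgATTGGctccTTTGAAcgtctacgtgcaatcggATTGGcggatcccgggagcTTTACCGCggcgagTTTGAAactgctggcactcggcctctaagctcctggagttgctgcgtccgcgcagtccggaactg
The *Ccnb2* window held 3 CCAAT and 2 TTTGAA, and the *Cdc20* window held 2 CCAAT and 1 TTTGAA. The *Plk1* window held 1 CCAAT, 1 TTTGAA and 2 TTTAAA. The *Cdk1* window held 3 CCAAT, 2 TTTGAA and 2 TTTNNCGC. Among 27025 promoters of 300 bases, one for each gene, 37.9% held CCAAT, 18.1% TTTGAA, 13.2% TTTAAA and 5.27% TTTNNCGC, and 10.9% held CCAAT together with TTTGAA or TTTAAA. A match is a description of the letters and not a measured site.

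*Mki67* ran through the tumors with no gap where the groups were divided. Fast tumors had 250.7 to 472 CPM with a mean of 325 ± 90.5 (SD, n = 7), middle tumors had a mean of 198 ± 27.3 (SD, n = 7), and slow tumors had 86.1 to 161 CPM with a mean of 136 ± 33.7 (SD, n = 7). The fast mean was 2.39 times the slow mean. The lowest fast tumor, R-7, stood only 0.016 above the first tumor left out of that group, R-21 (248.0 CPM), on the log2 scale. The highest slow tumor, R-13, stood 0.054 below the nearest middle tumor, R-14 (167 CPM). The ends of the range were further apart: N-7 (472 CPM) and N-3 (430 CPM) led the fast tumors, while N-6 (86.1 CPM) and R-15 (87.9 CPM) stood well below the other slow tumors. These values rest on 5187 to 29712 *Mki67* reads in a tumor.

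**Figure D1:**
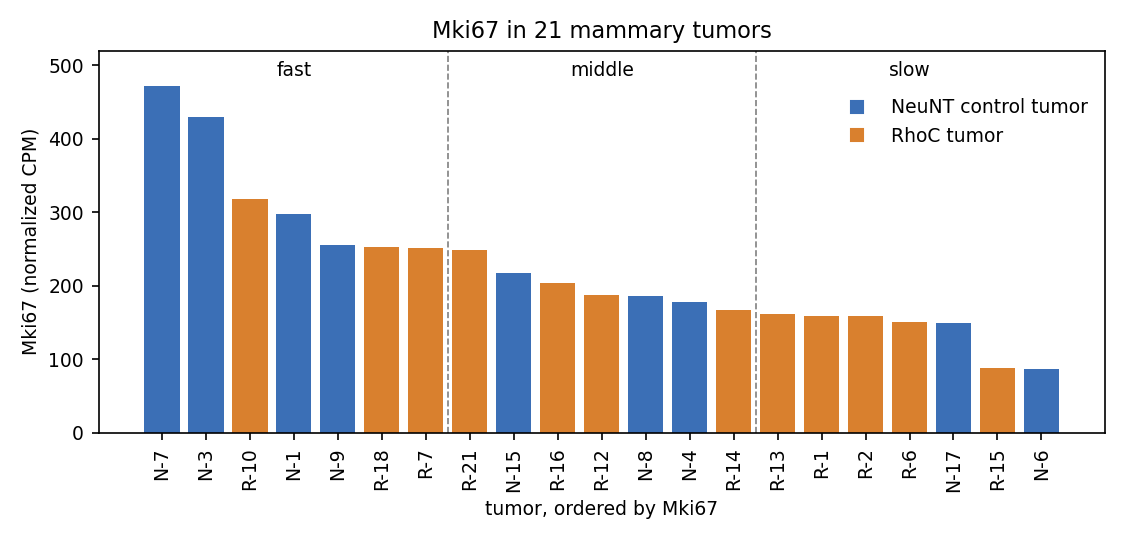
*Mki67* in normalized CPM (y axis) for the 21 tumors ordered by level (x axis), 1 bar a tumor, blue for NeuNT control and orange for RhoC, with lines between the 3 groups of 7. Levels ran from 472 CPM in N-7 to 86.1 CPM in N-6, with no gap at either boundary between groups and wide steps from N-3 (430 CPM) to R-10 (318 CPM) and from N-17 (149 CPM) to R-15 (87.9 CPM).

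The fast tumors were 4 NeuNT controls (N-7, N-3, N-1 and N-9, all with Gata4 loxP/+) and 3 RhoC tumors (R-10, R-18 and R-7). The slow tumors were 2 controls (N-17, without the Gata4 allele, and N-6, with it) and 5 RhoC tumors (R-13, R-1, R-2, R-6 and R-15). This difference in cohort did not pass the test (Fisher's exact test, 2-sided p = 0.592). Tumor types were mixed in both groups. The fast tumors comprised 2 complex adenocarcinomas (R-10, R-7), 2 solid nodular carcinomas (N-7, N-9), 1 poorly differentiated adenocarcinoma (N-3), 1 spindle cell tumor (N-1) and 1 with no type given. The slow tumors comprised 2 squamous cell carcinomas (R-13, R-6), 1 solid nodular carcinoma (R-1), 1 poorly differentiated adenocarcinoma (N-6), 1 with adenocarcinoma and adenomyoepithelioma (R-2), 1 given as solid nodular or poorly differentiated (R-15) and 1 with no type given. Squamous carcinoma was found in slow tumors and not in fast ones, but the third squamous tumor, R-14, missed the slow group by the small step given above. Types were taken from the study's table of tumors, and with 1 or 2 tumors of a type no test was made.

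Depth did not separate the groups beyond the spread between tumors. Total counts were 47309780 to 70524619 in fast tumors and 52293664 to 85326903 in slow tumors, a difference of -0.22 in mean log2 total (exact permutation test, 2-sided p = 0.148). The share of counts in the top 20 genes was 6.56 to 15.1% in fast and 7.94 to 14.9% in slow tumors (exact permutation p = 0.871). The labelled tissue was checked against epithelial keratins and adhesion: *Krt8* was at 155 to 431 CPM in fast and 171 to 1010 CPM in slow tumors, *Krt18* at 92.5 to 354 and 92.2 to 629 CPM, and *Epcam* at 202 to 822 and 305 to 772 CPM. All 14 tumors thus held epithelial RNA.

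Genes of the cell cycle leaned toward the fast tumors, and since *Mki67* is one of them they are given as a description. Of 137 tested genes of mitosis, 133 had a higher fitted level in fast tumors, with a median log2 fold change of 0.74. Of 104 genes of DNA replication, 97 were higher, with a median of 0.60, against a median of -0.05 over all 19314 genes tested, of which 46.1% were higher. The 29 cyclins, Cdks and E2Fs split 19 to 10 (median 0.17) and the 8 Cdk inhibitors 3 to 5 (median -0.34). Over 21 tumors the mean log2 CPM of the mitosis list had a Pearson r of 0.80 with *Mki67* (Spearman rho 0.72), and that of the replication list 0.79 (rho 0.67). These levels share their libraries with *Mki67*, so no p is given.

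Of the 137 genes of mitosis, 1 had every fast tumor above every slow one (0.285% of all genes did), and the genes named next overlapped between the groups. *Ccnb1* (cyclin B1) had 36.3, 49.2 and 145 CPM as the lowest, median and highest fast value, against 20.3, 35.4 and 65 CPM in slow tumors. *Plk1* had 24.8, 34.8 and 74.2 CPM against 12.9, 20 and 37.7 CPM, a log2 fold change of 0.99 ± 0.31 (SE). *Mcm5*, a subunit of the replicative helicase, had 45.6, 78.9 and 108 CPM against 21.9, 47.7 and 60.1 CPM, and 6 of 7 fast tumors were above every slow one. *Top2a*, the topoisomerase that untangles chromosomes, did not follow as closely: its medians were 271 and 254 CPM, and slow tumor R-1 reached 500 CPM. *Cdk1* had medians of 53.1 and 37.8 CPM, and its highest value of all 14 tumors, 104 CPM, was in slow tumor R-13. The 4 genes whose promoters are shown had log2 fold changes of 0.64 (*Ccnb2*), 0.73 (*Cdc20*), 0.99 (*Plk1*) and 0.28 (*Cdk1*). The genes that tracked *Mki67* most closely over 21 tumors were *Polq* (DNA polymerase theta, r = 0.90), *2700099C18Rik* and *Zwilch* (a kinetochore protein) at 0.89, *Hmmr* and *Atad5* at 0.88, and *Cwf19l1*, *Cdc7*, *Chek1*, *Cenpu* and *Pus7* at 0.87 (rounded).

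The G1 cyclin and Cdk inhibitor genes did not share 1 direction. *Ccnd1* (cyclin D1, which drives G1 cells toward S phase) had 222, 438 and 787 CPM in fast tumors and 361, 852 and 1530 CPM in slow tumors, a log2 fold change of -0.84 ± 0.36 (SE). *Cdkn1a* (p21, an inhibitor of Cdks) had 35.5, 85.4 and 257 CPM in fast and 75.6, 252 and 331 CPM in slow tumors. *Ccne1* (cyclin E1, which acts at the start of S phase) had medians of 9.25 CPM in fast and 6.09 CPM in slow tumors. The groups overlapped for all of these genes.

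**Figure D2:**
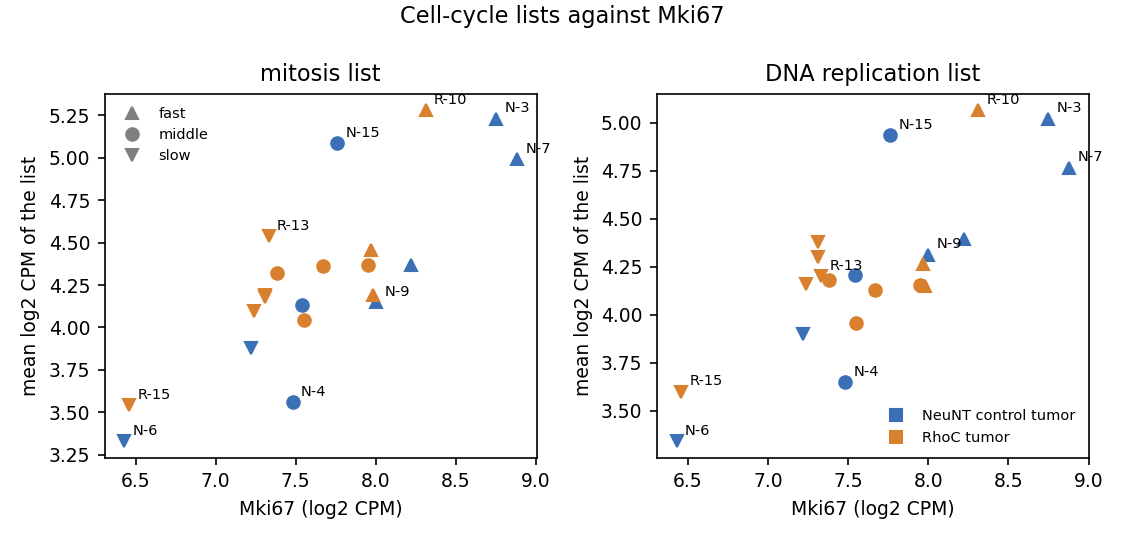
Mean log2 CPM of the mitosis list (left) and the DNA replication list (right) on the y axis against *Mki67* log2 CPM on the x axis, 1 point a tumor, with the marker shape for the fast, middle and slow group and the colour for the cohort. Both lists climb with *Mki67* (r = 0.80 and 0.79, n = 21), with N-6 and R-15 at the lower left and R-10 the highest for mitosis.

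The mitosis list did not order the tumors exactly as *Mki67* did. Of the 7 fast tumors, 4 were among the 7 highest by the mitosis list (R-10, N-3, N-7 and R-7, at ranks 1, 2, 4 and 6), while N-9 stood at rank 14. Of the 7 slow tumors, 4 were among the 7 lowest, and R-13, a squamous tumor, stood at rank 5. R-15 and N-6 were at ranks 20 and 21 by the list as well.

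Between the 7 fast and 7 slow tumors, edgeR's quasi-likelihood test called 0 of 19314 genes at an adjusted p under 0.05 (0% higher and 0% lower). The smallest adjusted p was 0.111, shared by 96 genes, while 1479 genes were higher (7.66% of those tested) and 1989 lower (10.3%) at an unadjusted p under 0.05. The p-values here measure only the spread between these tumors, and *Mki67* was chosen in the same libraries. DESeq2 on the same tumors called 467 genes higher and 629 lower, and voom in limma, with the mouse taken as random, called 0. Without calls, a plain criterion is whether the groups overlapped at all: 55 genes (0.285% of those tested) had every fast tumor above every slow tumor, and 40 genes (0.207%) had every fast tumor below. Of the 55, 9 were cell-cycle genes, and the middle tumors' mean lay between the other 2 group means for 52 of the 55 and 36 of the 40.

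When all 21 tumors were used and each gene was fitted as a slope on *Mki67* (log2 change per doubling of *Mki67*), the quasi-likelihood test of edgeR called 301 genes rising with *Mki67* (1.56% of those tested) and 71 falling (0.368%), again at an adjusted p under 0.05. Of 748 cell-cycle genes, 129 rose (17.2%) and 0 fell, with 19 falling at an unadjusted p under 0.05. They are counted only as a description, since *Mki67* is one of them. Outside the cell cycle, 172 of 18566 genes rose (0.926%) and 71 fell. All 372 had the same direction between the fast and slow tumors, which share 14 of the 21 tumors with the slope. The counts lean on the 2 tumors with the highest *Mki67*: without N-7 and N-3, 0 genes were called (1828 at an unadjusted p under 0.05). All 43 called slopes of the named genes then kept their sign, at 0.775 to 1.23 times their value over 21 tumors. Examples are *Pus7* (0.62 against 0.72), *Nolc1* (0.76 against 0.78) and *Ilvbl* (-1.43 against -1.30). These slopes were picked for their call over 21 tumors, most of which both fits share, so this is a description. Without the 4 tumors of mouse P497, 70 rose and 6 fell.

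Outside the cell cycle, the rising genes with the smallest p are given first. *Pus7*, a pseudouridine synthase that modifies RNA, had 33, 51.7 and 76.6 CPM as the lowest, median and highest fast value and 19.4, 27.2 and 30.5 CPM in slow tumors. The groups did not overlap, and its slope was 0.72 ± 0.10 (SE; edgeR adjusted p = 0.00109). *Srrt* (ARS2, which links capped RNA to processing) had 80.8, 99.8 and 121 CPM against 39.9, 65.6 and 74.4 CPM, again without overlap (slope adjusted p = 0.00184, edgeR). *Nolc1*, a nucleolar chaperone of small nucleolar RNPs, had 31.4, 44.4 and 63.2 CPM against 11.1, 25 and 42.7 CPM, and 5 of 7 fast tumors were above every slow one. Its slope was 0.78 ± 0.13 (SE; edgeR adjusted p = 0.00281). *Cwf19l1*, a splicing-related factor, and *Fam185a* both had an edgeR adjusted p of 0.00318 for the slope. The long noncoding RNA *4933404O12Rik* completed the rising genes outside replication and division (adjusted p = 0.00517, edgeR).

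Some of the leading genes outside the cell-cycle list still serve replication, repair or division, so the boundary of that list is not sharp. *Paxip1*, a BRCT protein of the DNA damage response, had 34.1, 41.9 and 59.6 CPM in fast and 22.6, 24.2 and 31.8 CPM in slow tumors without overlap (slope 0.57, edgeR adjusted p = 0.0017). *Atad5* unloads the PCNA clamp (adjusted p = 0.00151), *Gen1* resolves Holliday junctions (0.00235) and *Knstrn* is a spindle protein (0.00465). *Pus7*, *Paxip1*, *Srrt*, *Gen1*, *Nolc1*, *Atad5*, *Fam185a*, *Cwf19l1* and *Knstrn* kept their slope call when any 1 of the 21 tumors was left out and when cohort was a covariate (cohort-adjusted p 0.00384 to 0.01, edgeR). These fits take tumors of the same mouse as independent. Of all 43 named slope calls, 33 were left by voom with mouse as a random effect and 21 without mouse P497.

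Ribosome biogenesis as a list leaned toward the fast tumors. Of its 40 genes, 36 were higher (median log2 fold change 0.40, against -0.05 over all genes) and 7 had a rising slope call, against 1.56% of all genes. *Ncl* (nucleolin, the main nucleolar protein) had 272, 389 and 526 CPM in fast and 170, 204 and 270 CPM in slow tumors, with no overlap, and its slope missed the threshold (edgeR adjusted p = 0.0911). *Rrp1b* had 22.5, 35.1 and 61.6 CPM against 12.2, 18.5 and 20.3 CPM, also with no overlap (slope adjusted p = 0.0117, edgeR). *Gar1*, a protein of box H/ACA RNPs, had 7.06, 11.5 and 14.8 CPM against 4.09, 5.52 and 7.21 CPM (0.00782), and *Gnl3* (nucleostemin) had medians of 44.6 and 20.5 CPM (0.00596). *Taf1d*, a factor of RNA polymerase I whose introns carry snoRNAs, was singled out after its values were seen: it had the smallest p among genes higher in fast tumors with both no overlap and a slope call. It had 149, 307 and 536 CPM in fast and 48.1, 88.3 and 148 CPM in slow tumors, a log2 fold change of 1.80 ± 0.31 (SE), with a slope of 1.12 (edgeR adjusted p = 0.012).

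The same held for host genes of snoRNAs, which were looked at after *Taf1d*. Of 20 such genes found by symbol, 18 were higher in fast tumors (median log2 fold change 0.88) and 5 had a rising slope call, against 1.56% of all genes. *Dancr* had 3.54, 5.57 and 8.25 CPM against 0.299, 1.77 and 3.17 CPM, and *Snhg5* had 7.69, 9.74 and 16 CPM against 2.75, 4.65 and 7.69 CPM, each without overlap before rounding. The slope call of *Snhg5* was lost with cohort as a covariate (adjusted p = 0.0811, edgeR). *Snhg6* had medians of 5.32 and 2.26 CPM. Genes for ribosomal proteins themselves did not share this: 52 of 83 were higher, with a median of 0.08 and 0 slope calls by edgeR.

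RNA processing, nuclear pores, nucleotide supply and chromatin leaned the same way, with smaller medians within RhoC tumors alone for splicing (0.15) and nuclear transport (0.13). Of 26 splicing and RNA-binding genes, 24 were higher (median 0.36) and 2 had a rising slope call, against 1.56% of all genes, among them *Lsm2*, a part of the U6 snRNP (10.5, 15.5 and 20.7 CPM against 7.45, 7.88 and 13.7 CPM, edgeR adjusted p = 0.0314, and 0.0568 with cohort as a covariate). Of 19 nuclear transport genes, 17 were higher (median 0.31) and 0 had a slope call by edgeR. Between the groups 2 of the 19 were higher at an unadjusted p under 0.05, near the 7.66% of all genes. Of 31 genes of nucleotide and one-carbon metabolism, 25 were higher (median 0.28). *Ppat*, the first enzyme of purine synthesis, had 30.4, 59.8 and 98.2 CPM against 21.6, 25.9 and 37.8 CPM (slope adjusted p = 0.0119, edgeR), and *Umps*, which makes UMP, had medians of 39.7 and 25.1 CPM (0.0217).

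Chromatin regulators of the stem-cell and fetal kind were higher for 17 of 23 (median 0.45), against 46.1% of all genes, with 4 rising slope calls, against 1.56%. *Ezh2*, the methyltransferase of Polycomb repressive complex 2, had 35.9, 44.1 and 79.9 CPM in fast and 18.4, 29.1 and 37.7 CPM in slow tumors, with 6 of 7 fast tumors above every slow one (slope adjusted p = 0.0234, edgeR). *Dnmt3b*, a de novo DNA methyltransferase, had 5.82, 7.17 and 33 CPM against 1.58, 3.23 and 6.1 CPM (0.0185), and *Nsd2*, a histone H3 methyltransferase, had medians of 163 and 125 CPM (0.03). *Myc*, which drives growth genes, had 76.3, 129 and 183 CPM against 35.8, 59.9 and 129 CPM, and its slope did not pass the test (edgeR adjusted p = 0.113). Of the 13 genes of the Myc family and its partners, 10 were higher and 1 had a rising slope call, *Tfap4* (medians 16 and 7.86 CPM, adjusted p = 0.044). Its call was lost with cohort as a covariate (0.0938) and in 14 of 21 fits without 1 tumor.

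**Figure D3:**
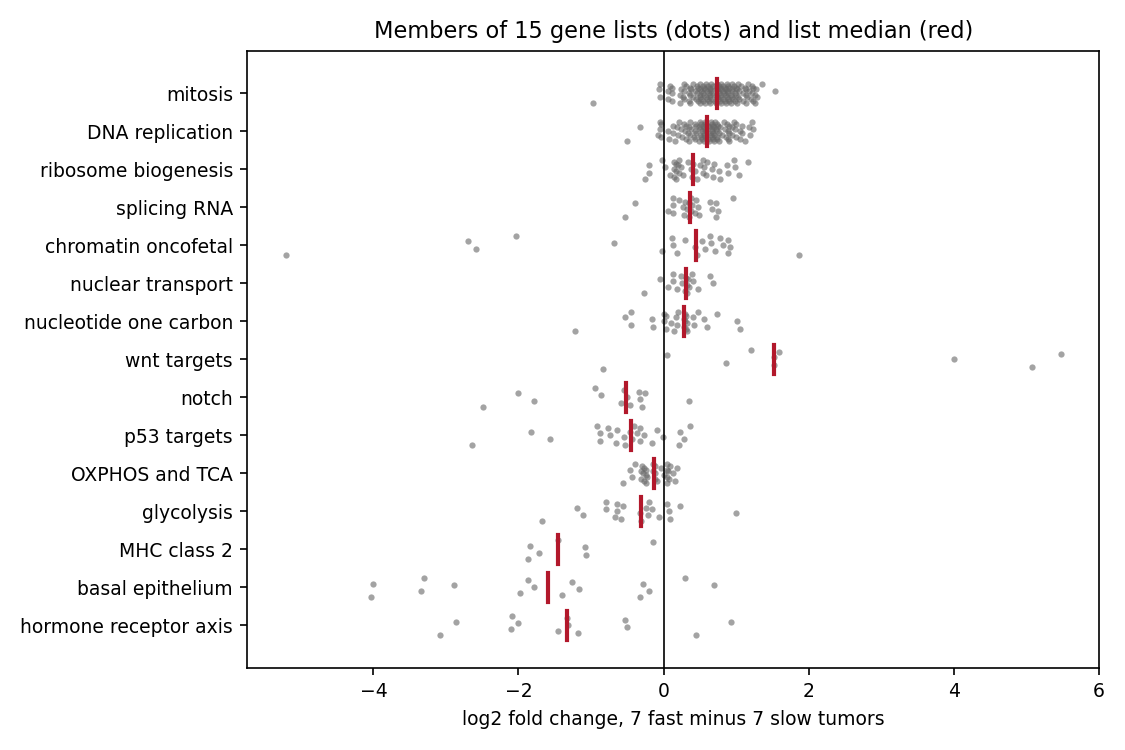
Log2 fold change of fast minus slow tumors (x axis) for each tested member (grey dots) of 15 gene lists (y axis), with the list median in red. The medians of mitosis (0.74), replication (0.60) and ribosome biogenesis (0.40) lie to the right of 0, and those of MHC class II (-1.45) and basal epithelium (-1.59) to the left.

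Feedback inhibitors and targets of Wnt signaling had wide differences, which came from some of the fast tumors. *Nkd1*, a feedback inhibitor that the Wnt pathway itself turns on, had 1.61, 14.4 and 301 CPM in fast and 0.631, 2.41 and 3.62 CPM in slow tumors. It was at 301 CPM in R-10, 145 in N-3, 48.2 in N-9, 14.4 in N-7 and 13.3 in N-1, all above every slow tumor, while R-18 (1.77) and R-7 (1.61) were within the slow range. The next tumors in the ranking, R-21 (9.67 CPM) and N-15 (10.7 CPM), were above the slow range too. Its slope was 3.30 ± 0.62 (SE; edgeR adjusted p = 0.00741). *Wif1*, a secreted Wnt inhibitor, had 0.202, 8 and 132 CPM against 0, 0.898 and 2.75 CPM, again with 5 fast tumors above every slow one (adjusted p = 0.021). *Znrf3*, which removes Wnt receptors from the membrane, had 39, 83.5 and 217 CPM against 30.7, 40.5 and 59.5 CPM (0.0454; 0.0573 with cohort as a covariate, and called in 5 of 21 fits without 1 tumor), and its partner *Rnf43* had medians of 49.2 and 30.8 CPM (0.158). Of the 10 Wnt targets tested, 9 were higher (median log2 fold change 1.52) and 3 had a rising slope call, against 1.56% of all genes. The median was 0.87 within RhoC tumors alone, 0.87 with tumors ranked by the mitosis list and 1.01 with voom. The exception was *Ccnd1*.

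Notch genes were lower in fast tumors for 13 of 14 (median log2 fold change -0.52), with 1 falling slope call (0.368% of all genes fell), and for 8 of 14 within the RhoC tumors alone (median -0.33). The called gene was *Hes1*, a repressor that Notch turns on, which had 16.3, 35.4 and 59.8 CPM in fast and 34.4, 63.6 and 99.4 CPM in slow tumors (slope -0.71, edgeR adjusted p = 0.0447). It was not called with cohort as a covariate (0.062), and it was called in 8 of 21 fits without 1 tumor. The ligand *Jag1* had 24.4, 47.7 and 144 CPM against 30.2, 170 and 771 CPM, and the feedback inhibitor *Nrarp* medians of 6.48 and 16.9 CPM, and neither slope passed the test (0.331 and 0.214). Between the 4 fast and 2 slow controls alone, *Jag1* differed by 0.02.

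The genes that fell with *Mki67* had no single theme among the fixed lists. *Ilvbl*, an enzyme of lipid breakdown in the endoplasmic reticulum, had 8.21, 10.3 and 23.8 CPM in fast and 16.4, 19.9 and 138 CPM in slow tumors (slope -1.30 ± 0.20 SE, edgeR adjusted p = 0.0017). Without N-6, the tumor at 138 CPM, its slope was -0.85 and its log2 fold change -0.95 in place of -1.71, and it was called in 20 of 21 fits without 1 tumor. *Pip4k2c*, a phosphoinositide kinase, had 63.1, 70.4 and 111 CPM against 90.6, 139 and 182 CPM (0.00713), and *Pdlim2*, a PDZ and LIM protein, had 4.74, 5.82 and 8.49 CPM against 8.01, 16.3 and 24.6 CPM (0.00981). In each of these 3, 6 of 7 fast tumors were below every slow one. *Sqstm1* (p62, a receptor of autophagy) had 95.6, 125 and 166 CPM against 105, 235 and 404 CPM (0.0144), and *Gabarap*, which builds autophagosomes and was singled out after its values were seen, had medians of 123 and 194 CPM (0.0469; 0.0682 with cohort as a covariate, and called in 7 of 21 fits without 1 tumor). *Sphk1*, which makes sphingosine-1-phosphate, had 1.32, 3.11 and 19.6 CPM against 10.1, 14.3 and 63.3 CPM (0.0172). *Nt5dc1* (0.00596), *Gpsm3* (0.00816), *Pttg1ip* (0.00904), *Tspyl1* (0.0167) and *Leprot* (0.0173) were the others with the smallest p. *Pqlc3* and *Fbxo6* were singled out after their values were seen, as every fast tumor was below every slow one: *Pqlc3* had 5.93, 11.2 and 14.2 CPM against 17.8, 40.6 and 80.6 CPM, a log2 fold change of -2.07 ± 0.31 (SE), and *Fbxo6* had medians of 11.7 and 21.7 CPM. The slope call of *Fbxo6* was lost with cohort as a covariate (edgeR adjusted p = 0.0549).

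**Figure D4:**
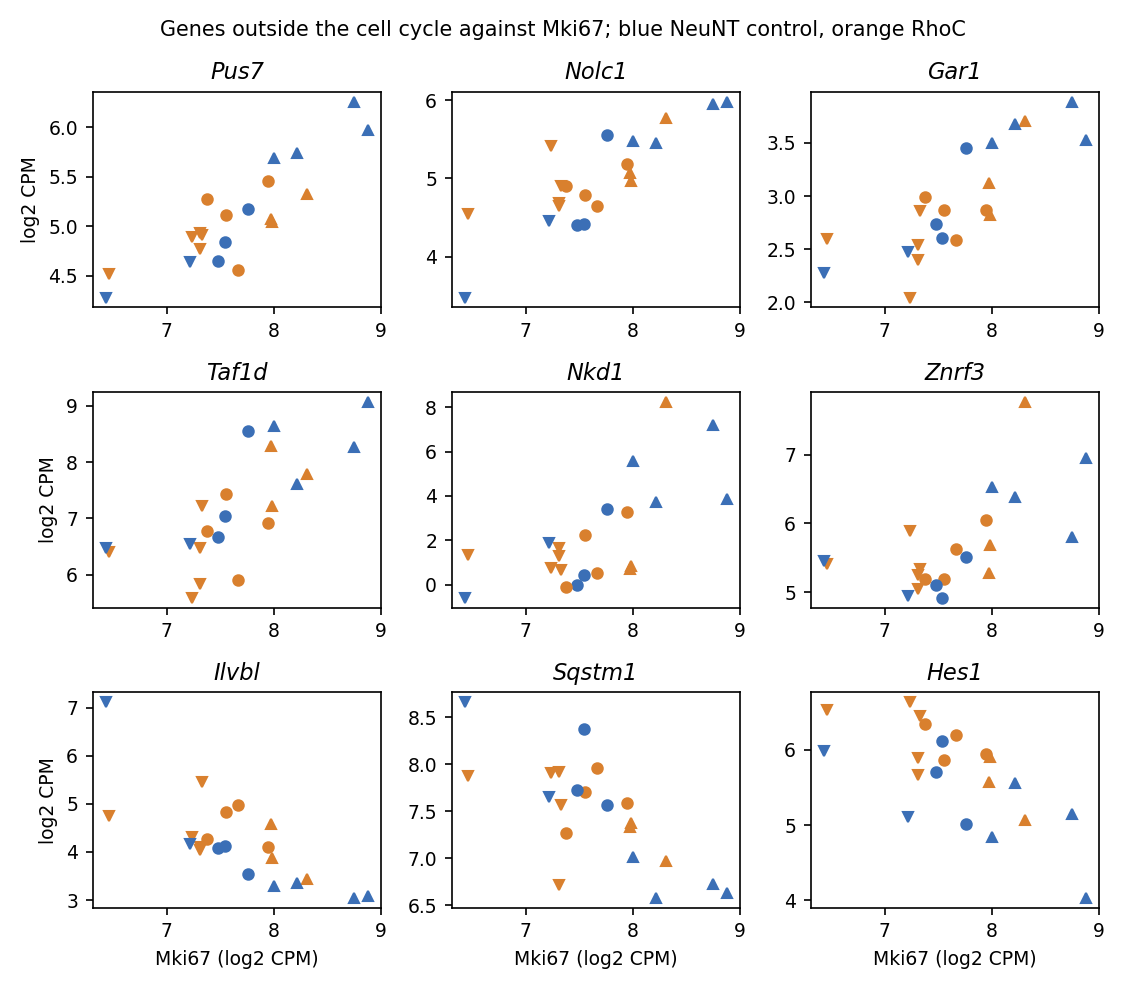
Log2 CPM (y axes) against *Mki67* log2 CPM (x axes) for 9 genes outside the cell-cycle list, 1 point a tumor, blue for NeuNT control and orange for RhoC, with the marker shape for the fast, middle and slow group. *Pus7*, *Nolc1*, *Gar1* and *Taf1d* climb with *Mki67*, *Nkd1* and *Znrf3* are raised in some tumors toward the right, and *Ilvbl*, *Sqstm1* and *Hes1* descend. At the left end *Gar1* and *Taf1d* do not fall further. Their lowest values are in R-6 (4.09 and 48.1 CPM), below R-15 (6 and 85 CPM) and N-6 (4.82 and 88.7 CPM).

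The falling genes were unevenly placed in the genome, which was examined after the values were seen. Chromosome 10 held 913 of the tested genes (4.73%) and 18 of the 71 falling genes (25.4%), among them *Ilvbl*, *Nt5dc1*, *Pip4k2c*, *Pttg1ip*, *Tspyl1* and *Gpx4*, a lipid peroxidase. *Gpx4* and its copy *Gpx4-ps2*, both among the 18, may share reads. *Nt5dc1* (34288288 to 34418552) and *Tspyl1* (34282190 to 34285275) are neighbours there. The level of chromosome 10 in each tumor, taken as the median over its 548 genes with a mean log2 CPM over 2 of the difference from each gene's median, was 0.48 in R-13 and 0.45 in N-6, both slow, and -0.30 in N-3, a fast tumor, on the log2 scale. The other slow tumors were between -0.14 and 0.04 and the fast tumors between -0.30 and 0, so 4 of 7 slow tumors were above every fast one. Chromosome 4, which held 10 of the 71 falling genes (14.1%, against 5.64% of those tested), also had 4 slow tumors above every fast one. On chromosome 15, 4 fast tumors were below every slow one. The difference in mean level, fast minus slow, was -0.19 for chromosome 10, -0.06 for chromosome 4 and -0.08 for chromosome 15. With cohort as a covariate, 14 of 42 falling genes were on chromosome 10. Without N-6, 5 of 51 falling genes were on chromosome 10, without N-3, 5 of 15, without N-7, 8 of 15, and without the tumors of mouse P497, which include R-13, 5 of 6. The part of this chromosome-wide level in the falling genes was not tested.

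Chromosome 5 held 42 of the 301 rising genes (14%) and 6.77% of the genes tested. Outside the cell cycle they were 27, with *Pus7*, *Paxip1*, *Srrt*, *Fam185a*, *Dancr*, *Ppat* and *Nsd2* among them. Its chromosome-wide level did not separate the groups: fast tumors had -0.08 to 0.19 and slow tumors -0.09 to 0.09 over 753 genes.

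The genes the mice were built with did not follow *Mki67* past the test. *Erbb2* had 256, 806 and 1850 CPM in fast and 263, 830 and 2570 CPM in slow tumors, a log2 fold change of -0.18 ± 0.53 (SE). It was -0.98 between the controls, 0.27 between the RhoC tumors and -0.74 with tumors ranked by the mitosis list. *Rhoc* had 26, 42.1 and 68.9 CPM in fast and 22.8, 96.1 and 145 CPM in slow tumors, and 6 of 7 slow tumors were above every fast tumor, R-2 being the exception. R-2 is labelled RhoC but had the lowest *Rhoc* of all 21 tumors (22.8 CPM). Controls had 26 to 172 CPM and the other RhoC tumors 66.2 to 148 CPM, and the reason was not tested. The difference between RhoC tumors given below includes R-2. The log2 fold change of *Rhoc* was -0.99 ± 0.35 (SE) and its slope adjusted p 0.118 (edgeR). The difference was -1.84 between the fast and slow controls and -0.34 between the fast and slow RhoC tumors, and the interaction of cohort with *Mki67* group was called for 0 of 19314 genes (0%) by edgeR, with 1735 at an unadjusted p under 0.05. *Gata4* had a median of 0 CPM in both groups and did not pass the filter on low counts, but it reached 36.5 CPM in fast tumor N-3, 7.56 in slow tumor N-17, and 50 and 29.8 in middle tumors N-15 and N-8.

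p53 targets were lower in fast tumors for 22 of 26 (median -0.45; 16 of 26 and -0.17 with tumors ranked by the mitosis list), with 0 slope calls by edgeR and 7 of 26 lower at an unadjusted p under 0.05, against 10.3% of all genes. *Cd82*, a tetraspanin, had 62.1, 78.6 and 122 CPM against 106, 150 and 184 CPM, and 5 of 7 fast tumors were below every slow one (slope adjusted p = 0.0614, edgeR). *Ccng1* (cyclin G1) had 115, 178 and 406 CPM against 252, 386 and 661 CPM (0.11). Genes of energy metabolism had smaller medians, -0.31 for 23 glycolysis genes and -0.13 for 32 genes of oxidative phosphorylation and the TCA cycle. Scaling by library size in place of TMM moved the median of all genes by 0.13, from -0.05 to 0.07. On that scale the medians were -0.14 for glycolysis and -0.0034 for oxidative phosphorylation and the TCA cycle. The second of these lists turned to 26 of 32 higher under ranking by the mitosis list (median 0.21) and 20 of 32 higher within RhoC tumors alone (median 0.05).

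Markers of other cell types are given next as a description: 0 of them were called between the groups or along *Mki67* by edgeR in any of the 18 lists with tested members, 13 of these lists had a median that changed sign under at least 1 of 11 alternatives, and each list's part in the results above was not tested. All 7 MHC class II genes, which are made by antigen-presenting cells, were lower in fast tumors (median -1.45), with a summed level of 138 to 1770 CPM in fast and 476 to 5790 CPM in slow tumors, and 0 slope calls by edgeR (5 lower at an unadjusted p under 0.05, against 10.3% of all genes). Their median was -0.51 with tumors ranked by the mitosis list, -0.66 with 10 against 10 tumors and -2.22 with 5 against 5. *H2-Ab1* had 30.5, 92.6 and 353 CPM against 94.1, 258 and 1420 CPM. T and NK cell markers were lower for 21 of 22, with sums of 7.53 to 27.5 and 12.3 to 90.9 CPM, and macrophage markers for 13 of 19, with sums of 594 to 2220 and 976 to 2510 CPM (9 of 19 within RhoC tumors alone). Neither list had a slope call by edgeR, and at an unadjusted p under 0.05 between the groups 4 and 1 were lower. *Klrb1c* (NK1.1, an NK cell receptor), singled out after its values were seen, had 0.0948, 0.367 and 1.45 CPM against 0.284, 2.3 and 16.8 CPM, and its slope call (edgeR adjusted p = 0.036) was lost with cohort as a covariate (0.0747). When the tumors were ranked by the mitosis list instead, T and NK markers split 12 higher to 10 lower, with a median of 0.05.

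Luminal markers split 11 higher to 12 lower, with sums of 2460 to 8620 CPM in fast and 3430 to 6190 CPM in slow tumors. Basal markers were lower in fast tumors for 14 of 16 (median -1.59), but the sums were 1420 to 5210 CPM in fast and 999 to 31900 CPM in slow tumors, so only some slow tumors were high. Between controls alone the basal median was 0.74, of the opposite sign. Squamous keratinocyte markers summed to 18.8 to 3210 CPM in fast and 13.7 to 18300 CPM in slow tumors, the slow group holding 2 squamous carcinomas. They were lower in fast tumors for 11 of 14, and between controls alone higher for 13 of 14.

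Genes of the hormone receptor axis were lower in fast tumors for 11 of 13 (median -1.33, and -0.65 with tumors ranked by the mitosis list), with 0 slope calls by edgeR and 3 of 13 lower at an unadjusted p under 0.05, against 10.3% of all genes. Their summed levels ran the other way, with medians of 1640 CPM in fast (415 to 1770) and 983 CPM in slow tumors (565 to 1610). *Areg*, an EGF-family ligand that estrogen induces, had medians of 13.2 and 28.4 CPM. Milk genes went the other way (10 of 11 higher, median 4.27) with sums that overlapped widely, 144 to 83200 CPM in fast and 417 to 19900 CPM in slow tumors. Fast tumors R-18 (83200 CPM) and R-7 (43600 CPM) stood apart, the other fast tumors were at 4670 CPM or less, and the medians of the sums were 4460 and 4410 CPM. Their direction turned between controls alone (8 of 11 lower, median -0.87) and with 5 against 5 tumors (8 of 11 lower, median -0.52). Fibroblast and matrix markers were lower for 21 of 24 (sums of 1070 to 14500 and 2860 to 20400 CPM), and endothelial markers for 17 of 20. Within RhoC tumors alone the fibroblast list split 12 to 12 and 15 of 20 endothelial markers were higher in fast tumors (median 0.33). All 10 skeletal muscle markers had a lower fitted level in fast tumors, but all 10 were higher within RhoC tumors alone (median 1.12) and 6 of 10 with DESeq2 (median 0.32). Their sums were 4.05 to 2780 CPM in fast and 3.69 to 24400 CPM in slow tumors, so some libraries in both groups held muscle RNA. Slow tumor N-17 stood apart at 24400 CPM, and the next slow tumor, R-1, had 1060 CPM. Fast tumors R-10 (2780 CPM) and N-3 (1410 CPM) lay between them. The medians of the sums were 43.8 CPM in fast and 110 CPM in slow tumors.

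**Figure D5:**
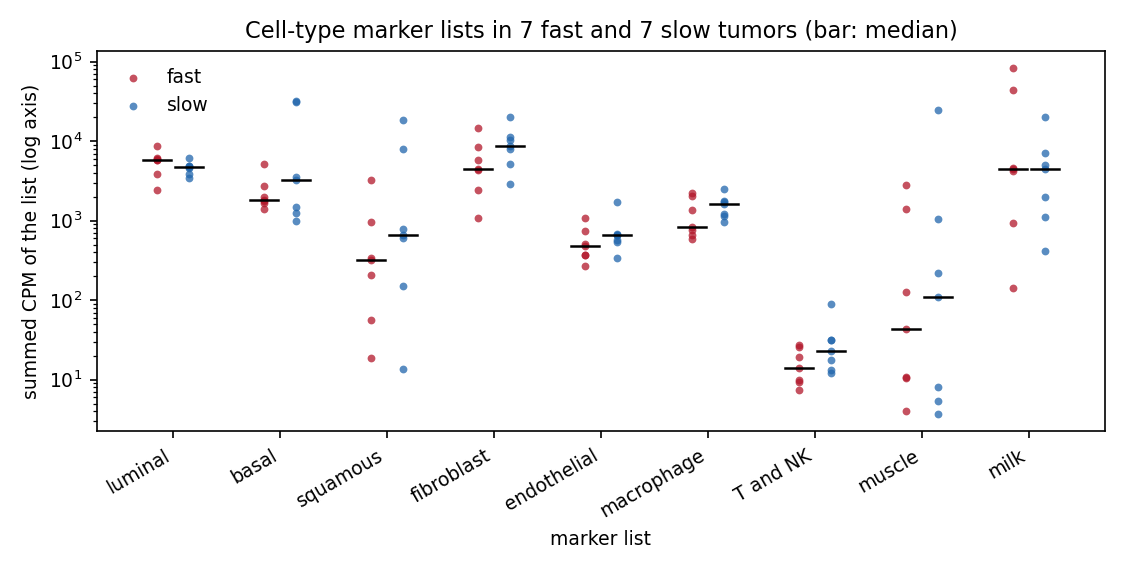
Summed CPM of each cell-type marker list (y axis, log scale) in the 7 fast and 7 slow tumors (points, x axis by list), with a bar at the median of each group. The groups overlap in every list shown, and the slow tumors reach higher for basal epithelium (31900 CPM).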

How the data were processed

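Total RNA libraries, prepared stranded after ribosomal RNA depletion, were analysed for 21 mouse mammary tumors. The authors deposited whole-number counts per gene for each tumor, made from trimmed reads with STAR 2.6.0c and HTSeq 0.6.1p2 on GRCm38.p6, keeping uniquely mapped reads (FastQC 0.11.5 and Trim Galore 0.5.0 are also listed in the submitters' processing notes). The strand setting of the counting and the annotation release are not given in the sources used here, so a gene and its antisense partner may not be told apart. The authors also deposited FPKM values, fold changes and p-values of RhoC against control tumors. From these tables only gene names, positions and FPKM of named genes were read, and the comparisons were not used.

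Counts were scaled by TMM over all 21 tumors, filtered by filterByExpr on cohort (19314 genes tested of 49652, *Mki67* left out) and fitted with edgeR 4.0.16 in R 4.3.3 by the quasi-likelihood test, with Benjamini-Hochberg adjustment at 0.05. Fits were fast against slow without covariates, a slope on *Mki67* log2 CPM over 21 tumors, and a cohort by group interaction. Scripts were tested on simulated data. DESeq2 1.42.0 and voom of limma 3.58.1 with mouse as a random effect served as alternatives, beside other scalings, filters, group sizes and rankings. Cell-cycle genes were fixed gene lists, histone, Cenp, Kif and Mcm symbols and 6 Reactome sets (600 of 611 identifiers matched). Named genes were a fixed set of cell-cycle genes, the 10 other genes of smallest p in each direction among those with a slope call, up to 4 members of smallest p in each list, *Rhoc*, *Erbb2* and *Gata4*, and the 10 genes best correlated with *Mki67*. The rule foresaw calls between fast and slow tumors, and as there were none it was applied to the slope. Genes named beyond it are said to have been singled out after their values were seen. The members and lists were chosen with earlier results of these data known. A few genes that the rule named are not reported here. Every fold change is on the log2 scale. Medians of FPKM, which are per length, were 29.7 for *Mki67* in fast and 15.2 in slow tumors.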

Additional observations from a re-analysis of the deposited data

Results flagged for a closer look

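Within each group of 7 tumors, 77 measures were searched for a single tumor far from the others by Dixon's test. They were 75 named genes, the mean log2 CPM of the mitosis list and the share of the 20 most abundant genes. Of 154 searches, 8 found one (5.19%), and chance gives about 1 in 20.

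Among fast tumors, N-3 was high for *Cwf19l1* (29.7 CPM, the others 17.8 to 22) and low for *Nt5dc1* (11.7 CPM, the others 18.4 to 22). R-18 was high for *Pip4k2c* (111 CPM, the others 63.1 to 80.3) and R-7 for *Pttg1ip* (149 CPM, the others 73.5 to 93.1). Among slow tumors, R-6 was high for *Mxd1*, a Myc antagonist that differentiating epithelium makes (870 CPM, the others 36.2 to 141), R-2 low for *Rhoc* (22.8 CPM, the others 79.2 to 145) and N-6 low for *Dancr* (0.299 CPM, the others 1.26 to 3.17). In N-6 the 20 most abundant genes took 14.9% of counts, against 7.94 to 10.9% in the other slow tumors.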

How the results depend on the processing

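Between fast and slow tumors, library-size scaling, no filter, cohort as a covariate, voom, leaving out mouse P497, 10 against 10 tumors, ranking by the mitosis list and either cohort alone all gave 0 calls, as edgeR did with 3468 genes at an unadjusted p under 0.05. DESeq2 called 467 higher and 629 lower (402 and 618 outside the cell cycle), and 52 of the 75 named genes. With 5 against 5 tumors 2 genes were lower, both outside the cell cycle. Leaving out 1 tumor gave 0 to 1 higher (1 without N-3) and 0 to 1 lower (*Pqlc3*, without N-17). The cohort makeup of groups ranked by the mitosis list was 3 against 4 controls (Fisher's exact p = 1).

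The number of slope calls depended on few tumors. Without the 2 highest, slopes of named genes that had been picked for their call stayed near. Examples are *Fam185a* (0.81 against 0.85), *Gar1* (0.68 against 0.67) and *Pdlim2* (-1.12 against -0.91). Slope calls were 204 rising (85 outside the cell cycle) and 42 falling with cohort as a covariate, which left 35 of the 43 named slope calls. Of these 43, 33 were left with voom, 21 without mouse P497, 19 without the 2 lowest tumors and 0 without the 2 highest. The counts were 223 (99) and 32 with voom, 70 (26) and 6 without mouse P497, 98 (57) and 57 without the 2 lowest tumors (N-6, R-15), and 0 and 0 without the 2 highest (N-7, N-3). The last 4 alternatives were chosen after seeing the data. Leaving out 1 tumor gave 114 (without N-3) to 340 (without N-4) rising, of which 52 to 199 lay outside the cell cycle, and 15 (without N-7 or N-3) to 121 (without N-4) falling, of which 15 to 118 did. Without N-7 the rising calls were 154, without N-6 161 and without R-15 197. Without R-10, N-1, N-9 or R-15 the falling calls were 38, 39, 42 and 43.

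Directions turned for *Erbb2* in RhoC tumors alone (0.267) and without N-6 (0.212, and -0.444 without R-7), and between controls alone for *Lama3* (1.105), *Itgb4* (0.369) and *Jag1* (0.021). The cause was not tested for any of these.

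No paired analysis was possible because the groups are ranks of *Mki67* and only 1 mouse with a given name, N9255, had both a fast and a slow tumor; mouse was a random effect in the voom fit. Between controls alone the slow group holds 2 tumors. Genes under about 1 CPM, such as *Wif1* or *Klrb1c* in some tumors, rest on few reads.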

Other observations

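Among genes of ErbB and ERK signaling, 2 ligands are given with their values, and neither passed the test. *Ereg* (epiregulin) had 0.436, 2.01 and 6.24 CPM as the lowest, median and highest fast value and 0.136, 28.6 and 141 CPM in slow tumors, and 4 of 7 slow tumors were above every fast one (slope adjusted p = 0.135, edgeR). *Nrg1* (neuregulin 1) had 3.13, 5.07 and 54.7 CPM against 12.5, 19.6 and 313 CPM, and 5 of 7 fast tumors were below every slow one (0.163). *Grb7*, the neighbour of *Erbb2*, had medians of 893 and 141 CPM with ranges of 16.8 to 1860 and 38.5 to 2420 CPM, and these medians followed the cohort. The 4 fast controls had 893 to 1860 CPM and the 2 slow controls 933 and 2420 CPM, while the RhoC tumors had 16.8 to 168 CPM in the fast and 38.5 to 168 CPM in the slow group. Of the 10 tested genes around *Erbb2*, 3 were higher in fast tumors (median -0.27), and 0 with cohort as a covariate (median -0.62) or between controls alone (median -1.09), with 0 called by edgeR in each. The median was -0.09 with library-size scaling, and it turned to 0.14 with voom.

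Of 18 genes of ErbB and ERK signaling 11 were lower in fast tumors (median -0.31), of 17 immediate early genes 14 (median -0.44), of 26 interferon response genes 20 (median -0.28), of 19 hypoxia genes 14 (median -0.27) and of 22 cholesterol and fatty acid genes 16 (median -0.23), and edgeR gave 0 slope calls in each list. At an unadjusted p under 0.05 between the groups these lists had 3, 2, 0, 1 and 3 genes lower, where 10.3% of all genes were. The interferon list turned to 18 of 26 higher with 10 against 10 tumors (median 0.37) and 22 of 26 under ranking by the mitosis list (median 0.69), the hypoxia list to 11 of 19 higher with 5 against 5 tumors (median 0.11), and the cholesterol and fatty acid list to 13 of 22 higher under the mitosis ranking (median 0.10). Adipocyte markers were lower for 10 of 12 (median -1.57), neutrophil markers for 6 of 8 (median -1.04) and B cell markers for 5 of 5 (median -0.63), while Schwann cell markers were higher for 5 of 6 (median 0.61). In the summed levels, which include members not tested, 1 slow tumor stood apart for adipocytes (N-17, 3640 CPM), neutrophils (R-6, 774 CPM) and B cells (R-2, 897 CPM). The medians of the sums ran the other way for adipocytes (285 CPM in fast, 205 CPM in slow tumors) and neutrophils (31.3 and 26.1 CPM). For B cells they were 4.93 and 6.53 CPM. Within RhoC tumors alone 10 of 12 adipocyte markers were higher (median 1.12), and DESeq2 split them 6 to 6. Between controls alone 7 of 8 neutrophil markers were higher (median 0.92) and 5 of 6 Schwann cell markers lower (median -0.22).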
